A study of Homo sapiens with 15 samples.

Results

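Low glutamine at 0.20 mM was compared with full medium (2.5 mM glutamine) in MCF10A, an immortalized but non-tumorigenic human breast epithelial cell line of wild-type genotype per the labels. All 3 libraries labelled 0.20 mM and all 3 labelled full medium were used, 6 of the 15 libraries in the series, each group with 3 biological replicates. The low-glutamine cells were kept in DMEM/F12 that lacks glutamine, to which glutamine was added back. The other 9 libraries, at 0.28, 0.12 and 0.04 mM, entered the same statistical fit and serve below only to show where 0.20 mM differed. Total RNA was depleted of ribosomal RNA and sequenced. Of 62754 Ensembl genes in the count table, 13828 had enough counts to be tested. How long the cells were kept at each concentration is not given in the sources used here, and the results describe 1 cell line.

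Glutamine is an abundant free amino acid that donates its amide nitrogen to purines, pyrimidines, hexosamines and asparagine. Cells turn it into glutamate, which feeds the citric acid cycle, proline, glutathione and transamination, while glutamine synthetase runs the reaction the other way. Cells short of amino acids activate the kinase GCN2 and the transcription factor ATF4, and reduce signalling through mTORC1, the kinase complex that drives ribosome production and growth.

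Gene counts were 11833646, 8758587 and 8762578 in the 0.20 mM libraries of replicates 1, 2 and 3, and 11442044, 9183710 and 7451107 in those of full medium. Levels are given as CPM, counts scaled to each library's TMM-adjusted size, and changes are log2 fold changes ± 1 standard error (SE) of 0.20 mM against full medium. The test was edgeR's quasi-likelihood F test, blocked on the replicate number, and p-values were adjusted over all 13828 genes by the Benjamini-Hochberg method. The words rose and fell are used for genes with an adjusted p under 0.05. Mitochondrial ribosomal RNA took 0.402% of counts in 0.20 mM replicate 1 and at most 0.0219% in the other 5 libraries. KRT5, a basal keratin, was abundant in all 6 libraries. It was at 7763, 6721 and 7241 CPM in full medium and 7086, 6488 and 5854 CPM at 0.20 mM. KRT14, another basal keratin, was abundant too but fell (-0.27, adjusted p = 0.0116). Its call was lost without 0.20 mM replicate 1 (adjusted p = 0.069) or 3 (0.0783). The epithelial marker EPCAM was low, at 2.95, 6.04 and 11.8 CPM and then 3.06, 5.79 and 6.39 CPM. The hormone receptor gene ESR1 had 6 reads summed over the full-medium libraries and 3 over the 0.20 mM libraries.

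At 0.20 mM, 1061 genes rose (7.67% of those tested) and 989 fell (7.15%). The changes were small: the median size among called genes was 0.34 on the log2 scale, and 40 genes rose and 33 fell by 2-fold or more. Of the 2050 called genes, 2009 moved the same way in all 3 pairs of libraries that share a replicate number. The levels of the 2 groups did not overlap for 1027 called genes, and for 2150 of all genes tested (15.5%). The calls rest on the block: without it, SLITRK6 (1.15, adjusted p = 0.043) and GRAMD1B (2.09, adjusted p = 0.043) rose and 0 genes fell, with 1415 genes at an unadjusted p under 0.05 against 3931 with the block. Scaled to the spike-in RNAs instead of TMM, 141 rose and 280 fell, so that 33.5% of calls were rises in place of 51.8%. Without 0.20 mM replicate 1, 496 rose and 481 fell, and without 0.20 mM replicate 3, 555 rose and 558 fell.

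The size of these changes followed the base composition of the gene, which touches every result below. Genes with AT-rich exons were higher at 0.20 mM and genes with GC-rich exons lower. In the decile of genes with the lowest GC content (median 37.1%) the median change was 0.21, and 24.4% of genes rose and 0.369% fell. In the decile with the highest (median 64.1%) the median change was -0.16, and 0.591% rose and 17% fell. The risen genes had a median GC content of 40.3% and the fallen ones 57.5%, against 48.4% over all tested genes. The difference between the highest and the lowest quintile of genes by GC was -0.34, and it was -0.46, -0.22 and -0.31 in the pairs of replicates 1, 2 and 3. All 3 pairs had the same sign, but 3 pairs cannot reach a p below 0.25 in an exact sign-flip test, so no test is given.

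**Figure D1:**
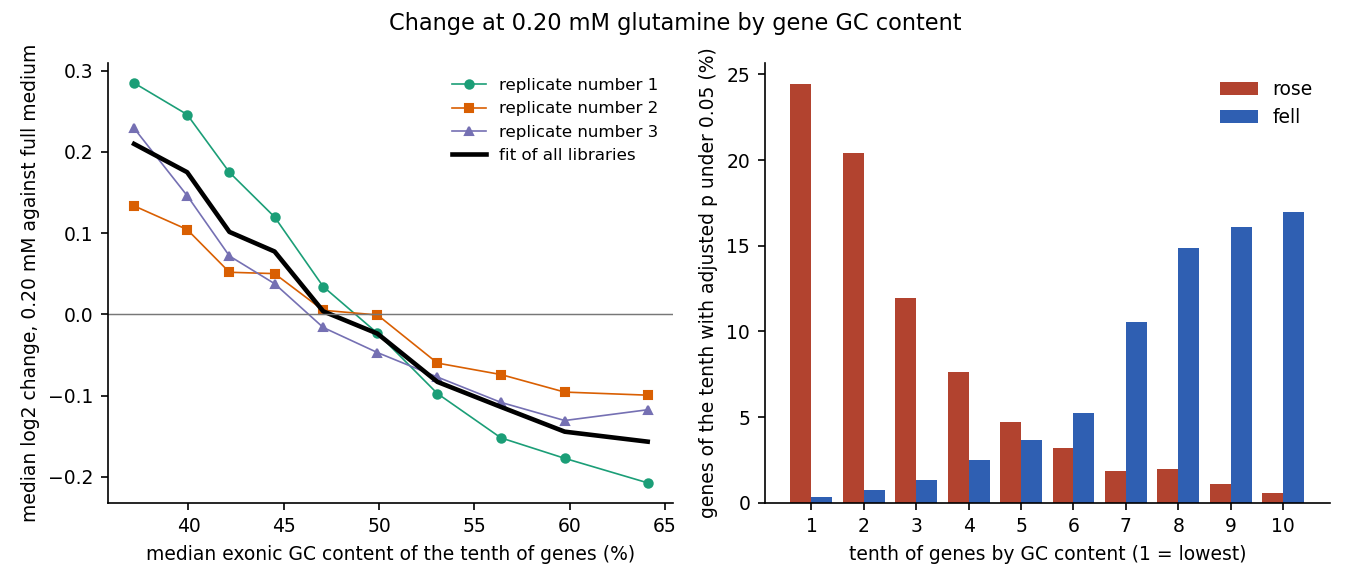
Left, the median log2 change at 0.20 mM against full medium (y axis) for 10 equal groups of genes ordered by exonic GC content (x axis, %), for each replicate pair and for the fit of all libraries; right, the percent of each group that rose or fell. The median falls from 0.21 in the lowest group to -0.16 in the highest, and each pair slopes down.

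Gene length went the other way. The quintile of genes with the longest transcripts had a median change of 0.09 and the quintile with the shortest -0.09, a difference of 0.18 (0.21, 0.18 and 0.13 in the pairs). Risen genes had a median transcript length of 4884 bases and fallen genes 2586 bases. Length and GC content are related across genes, with Spearman's rho of -0.28. Within quintiles of length the GC difference stayed between -0.34 and -0.27, and within quintiles of GC content the length difference was 0.02 to 0.13.

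Each library's own GC contrast shows which libraries carried this gradient. The contrast is the log2 level against the mean of all libraries, highest minus lowest GC quintile. In full medium it was 0.50, -0.06 and 0.01 in replicates 1, 2 and 3, and at 0.20 mM it was 0.04, -0.27 and -0.32. The 0.20 mM library had the lowest value of the 5 libraries with the same replicate number, for each of the 3 numbers. Replicate 1 libraries were the highest in every group, so the 2 groups overlap unless the replicate number is taken into account.

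**Figure D2:**
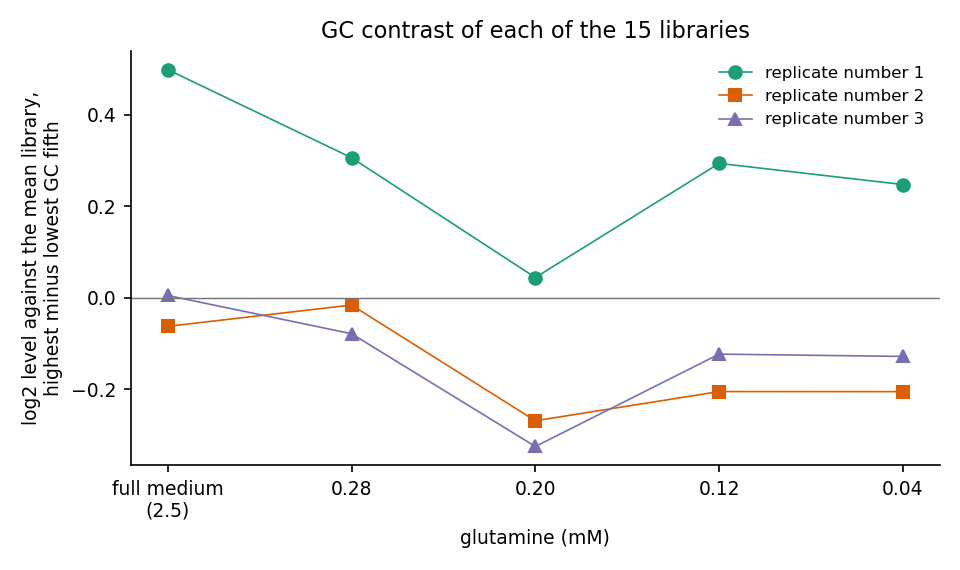
The GC contrast of each of the 15 libraries (y axis, log2 level against the mean library in the highest GC quintile minus the lowest) by glutamine concentration (x axis, mM), with lines joining libraries of 1 replicate number. The 0.20 mM point is the lowest on each of the 3 lines.

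The gradient was smaller at the other concentrations. Against the same full-medium libraries the GC difference was -0.08 at 0.28 mM, -0.15 at 0.12 mM and -0.18 at 0.04 mM, values that share their controls with the -0.34 at 0.20 mM. Set directly against 0.28 mM, 0.20 mM differed by -0.25 (-0.27, -0.26 and -0.24 in the pairs). Against 0.12 mM the difference was -0.18 (-0.25, -0.07 and -0.20), and against 0.04 mM it was -0.16 (-0.20, -0.07 and -0.18). The gradient was thus largest in size at 0.20 mM, not at the lowest concentration, and its cause was not tested.

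The gene calls and group counts were therefore also computed with an offset that removes, in each library, the smooth dependence of the counts on GC content and length. With this offset the remaining GC difference was -0.01 and the length difference 0.01. It left 398 risen genes (2.88%) and 555 fallen genes (4.01%), so that 41.8% of calls were rises. Of these, 308 and 389 were also called without it, and 0 genes were called in opposite directions. An offset for length alone gave 744 risen and 1158 fallen genes, with 39.1% rises. For most genes and groups below, values with the offset for both are given beside the first value. A value without one is from the first fit only, and may follow the gradient. Group counts stand against 7.67% risen and 7.15% fallen over all genes, and 2.88% and 4.01% with the offset.

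The genes that rose most include the enzyme that commits glutamine to hexosamine synthesis. Some of them lie on the rising side of the GC gradient, such as SLITRK6 (GC content 37.1%) and PNLIPRP3 (39.0%). GFPT2 (ENSG00000131459, GRCh38.p14 chr5:180300698-180353336), a glutamine-fructose-6-phosphate transaminase, was at 15, 14.2 and 14.7 CPM in full medium and 26.4, 28.0 and 39.4 CPM at 0.20 mM. All 3 low-glutamine libraries were above all 3 controls, and the change of 1.06 ± 0.14 (adjusted p = 8.21e-06) was 1.10 with the offset (adjusted p = 3.53e-06). MCF2 (ENSG00000101977, chrX:139581770-139708167), a guanine nucleotide exchange factor, had the largest rise among called genes that averaged 5 CPM or more, have a symbol and moved 1 way in all 3 pairs. It went from 2.95, 4.31 and 2.2 CPM to 8.47, 7.95 and 8.09 CPM, a change of 1.36 ± 0.23 (adjusted p = 0.000211; 1.18 with the offset). PTCHD4, a patched-domain protein, went from 6.65, 6.90 and 4.78 CPM to 12.9, 14.5 and 15.2 CPM (1.19 ± 0.19, adjusted p = 8.16e-05; 1.2 with the offset). Neither gene's groups overlapped.

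SLITRK6 (ENSG00000184564, chr13:85792790-85799419), a neuronal-type transmembrane protein, was at 16.2, 11.5 and 11.2 CPM in full medium and at 30.4, 23.8 and 32.7 CPM at 0.20 mM. The change was 1.14 ± 0.15 (adjusted p = 8.21e-06; 0.91 with the offset). PNLIPRP3 (ENSG00000203837, chr10:116427847-116477957), a pancreatic lipase-related protein, went from 11.4, 21.3 and 12.5 CPM to 26.5, 40.7 and 28.3 CPM (1.09 ± 0.12, adjusted p = 5.38e-07; 0.94 with the offset). Both were higher in every 0.20 mM library than in any control. CXCL8 (ENSG00000169429, chr4:73740569-73743716), the chemokine interleukin-8, was at 2.49, 4.20 and 4.39 CPM in full medium and at 3.32, 10.7 and 10.9 CPM at 0.20 mM. Replicate 1 at 0.20 mM lay within the range of the controls, so the groups overlapped, and the change was 1.08 ± 0.22 (adjusted p = 0.00144; 0.86 with the offset, adjusted p = 0.0127).

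The promoters of 4 of these risen genes are shown. Those of SLITRK6, PNLIPRP3 and CXCL8 carry the letters of AP-1, a factor of growth signalling, and that of SLITRK6 also those of a C/EBP-ATF element linked to amino acid shortage. That of GFPT2, an enzyme that uses glutamine, is shown beside them. They are the 300 bases from 250 before to 50 after the start in RefSeq (GRCh38.p14), 5′ to 3′ on the gene's strand. Capitals mark matches on either strand to TGATGNAA (a C/EBP-ATF response element), TGANTCA (AP-1), CACGTG (E-box) or CCAAT, and no matches overlapped. SLITRK6 is at chr13:85799370-85799669 on the minus strand, PNLIPRP3 at chr10:116427597-116427896 on the plus strand, CXCL8 at chr4:73740319-73740618 on the plus strand and GFPT2 at chr5:180353287-180353586 on the minus strand.
SLITRK6: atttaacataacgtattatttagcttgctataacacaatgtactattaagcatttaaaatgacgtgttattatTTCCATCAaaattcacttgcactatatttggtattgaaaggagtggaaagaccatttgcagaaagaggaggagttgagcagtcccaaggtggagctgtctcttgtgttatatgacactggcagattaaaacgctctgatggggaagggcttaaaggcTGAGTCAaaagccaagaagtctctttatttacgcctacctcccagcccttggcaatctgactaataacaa
PNLIPRP3: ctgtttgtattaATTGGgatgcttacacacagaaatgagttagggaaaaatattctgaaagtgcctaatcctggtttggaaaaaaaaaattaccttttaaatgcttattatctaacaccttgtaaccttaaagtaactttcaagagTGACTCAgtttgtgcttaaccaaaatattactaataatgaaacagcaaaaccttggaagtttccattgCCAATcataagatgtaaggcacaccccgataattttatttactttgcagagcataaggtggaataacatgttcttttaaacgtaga
CXCL8: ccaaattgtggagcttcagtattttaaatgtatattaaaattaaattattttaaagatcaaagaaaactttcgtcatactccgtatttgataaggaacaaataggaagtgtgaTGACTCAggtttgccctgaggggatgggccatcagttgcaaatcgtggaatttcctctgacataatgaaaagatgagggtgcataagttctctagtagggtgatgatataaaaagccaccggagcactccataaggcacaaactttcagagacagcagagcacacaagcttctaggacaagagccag
GFPT2: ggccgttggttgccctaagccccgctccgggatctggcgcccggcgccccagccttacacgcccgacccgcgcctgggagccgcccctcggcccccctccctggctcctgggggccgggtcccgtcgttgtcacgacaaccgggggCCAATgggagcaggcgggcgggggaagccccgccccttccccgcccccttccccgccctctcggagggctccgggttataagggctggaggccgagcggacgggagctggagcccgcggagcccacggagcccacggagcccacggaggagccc

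SLITRK6 has the C/EBP-ATF letters at base 74 (on the reverse strand) and AP-1 letters at base 231, PNLIPRP3 has AP-1 letters at base 147 and CXCL8 at base 114. The GFPT2 window has a CCAAT box at base 147 and 0 C/EBP-ATF or AP-1 matches. Its GC content was 77.0%, against 32.3% for PNLIPRP3, 38.7% for SLITRK6, 39.3% for CXCL8 and a median of 58.7% over the table. Of 35116 promoters in the table, 3.62% hold the C/EBP-ATF letters, 7.71% AP-1, 7.26% the E-box and 34.6% CCAAT. Of the 12 genes that rose most, 10 are in the table, and 1, 3, 1 and 5 of them hold these motifs in that order. Of the 12 that fell most 8 are in the table, with 0, 1, 0 and 3. The shares are per promoter but these counts are per gene: the 10 risen genes have 13 starts and the 8 fallen ones 12. Such small numbers describe these windows only, and a match is not a bound site.

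The other genes among the 12 that rose most were LINC02454, a long noncoding RNA (1.18), SLC46A3, a lysosomal carrier (1.03), KDM7A, a histone demethylase (0.97), FAM167A (0.97), CCNG2, cyclin G2, which is linked to exit from the cell cycle (0.94), and ARNT2, a partner of HIF and other PAS-domain factors (0.89). KDM7A was at 8.13, 10.6 and 10.5 CPM in full medium and 13.5, 21 and 23.5 CPM at 0.20 mM. CCNG2 was at 16, 17.6 and 18 CPM and then 29.4, 39.5 and 30.02 CPM (SE 0.12, adjusted p = 1.19e-05; 0.77 with the offset). All 12 had an adjusted p under 0.05 with the offset as well. FAM167A lost its call without full-medium replicate 3 (0.58, adjusted p = 0.0633).

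Among the 12 that fell most, PYCR3 (ENSG00000104524), which makes proline from a glutamate-derived precursor, was at 38.2, 36.3 and 38.0 CPM in full medium and at 27.9, 16.9 and 21.7 CPM at 0.20 mM. The groups did not overlap, and the change was -0.76 ± 0.13 (adjusted p = 0.000197; -0.62 with the offset). PCYOX1L went from 14.6, 9.70 and 18.3 CPM to 6.99, 5.90 and 11.5 CPM, with overlap between groups but a fall in every pair (-0.82 ± 0.15, adjusted p = 0.000453; -0.80 with the offset). HCFC1R1 (-1.05), NRSN2 (-1.01), REXO5 (-0.91), CA2, a carbonic anhydrase (-0.88), and TLCD1 (-0.85) were below 11 CPM on average. REXO5 lost its call without full-medium replicate 3 (-0.71, adjusted p = 0.0529), and CA2 without 0.20 mM replicate 2 (-0.73, adjusted p = 0.0585).

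The remaining 5 of these 12 are uncertain. RN7SL471P (-1.19) and BCYRN1 (-1.10) have near-identical copies elsewhere in the genome. VIM-AS1 (-1.11), MIF (-0.85) and RELL2 (-0.77) share 32%, 62% and 39% of their exonic bases with another gene, and whether reads were counted by strand is not given in the sources used here. VIM-AS1 lost its call without 0.20 mM replicate 1 (adjusted p = 0.0557), 0.20 mM replicate 3 (0.0707) or full-medium replicate 1 (0.144). MIF lost its call without 0.20 mM replicate 1 (adjusted p = 0.122) or full-medium replicate 1 (0.0558).

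**Figure D3:**
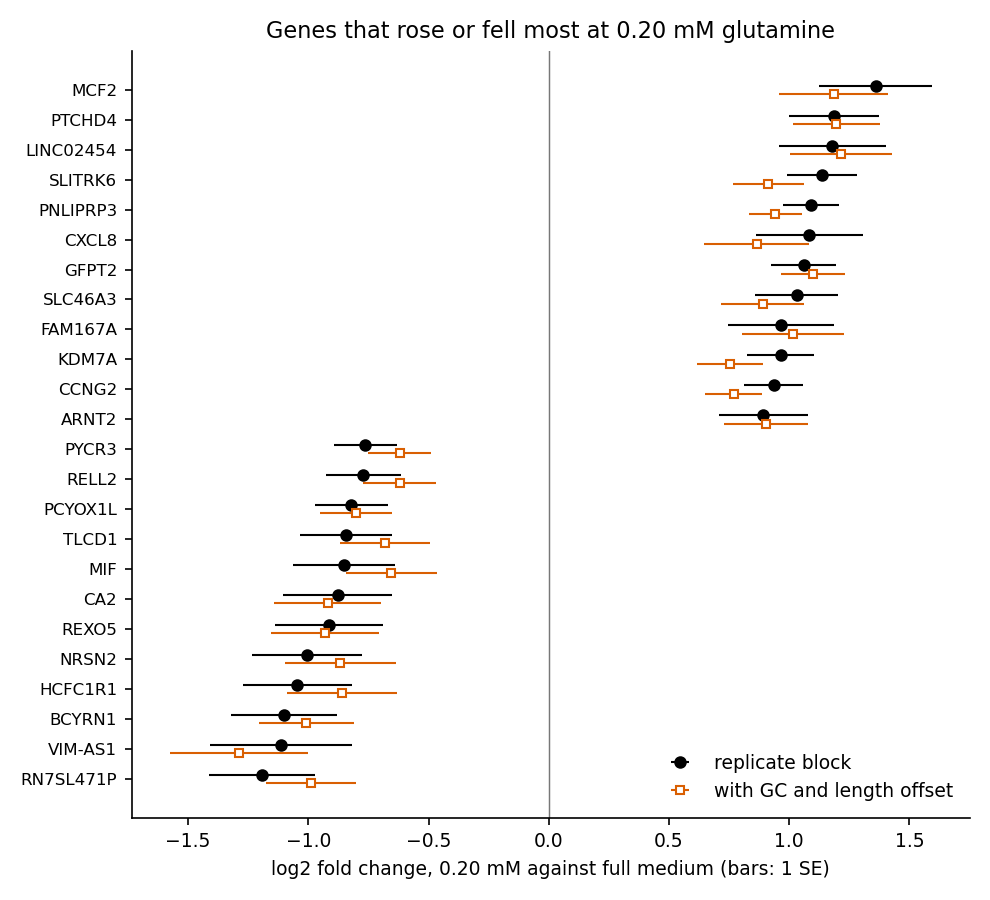
Log2 change at 0.20 mM against full medium (x axis, bars 1 SE) of the 12 genes that rose most and the 12 that fell most, without (filled circles) and with (open squares) the GC and length offset. The filled circles run from -1.19 for RN7SL471P to 1.36 for MCF2, and all open squares stay on the same side of 0.

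Genes that handle glutamine itself moved in both directions. SLC38A2 (ENSG00000134294, chr12:46358188-46372773), which imports glutamine and other neutral amino acids, was at 273, 376 and 304 CPM in full medium and at 395, 660 and 552 CPM at 0.20 mM. The groups did not overlap, and the change of 0.74 ± 0.07 (adjusted p = 7.67e-08; 0.53 with the offset, adjusted p = 6.91e-06) had the smallest adjusted p of the transporter and ATF4 lists. GLUL (ENSG00000135821, chr1:182378098-182391790), glutamine synthetase, which makes glutamine, went the other way. It was at 422, 330 and 418 CPM in full medium and 310, 268 and 246 CPM at 0.20 mM, lower in every 0.20 mM library (-0.51 ± 0.07, adjusted p = 2.37e-05; -0.53 with the offset). The protein was not measured in these data, and GLUL protein is known to be controlled by its degradation in response to glutamine.

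Of 30 tested enzymes that make or use glutamine or glutamate, 6 rose and 5 fell, with a median change of -0.06 against 0.0033 over all tested genes. With the offset 3 rose and 4 fell. Besides GFPT2, risen ones included GLUD1, OAT, GMPS and GCLC, the last the catalytic subunit of glutamate-cysteine ligase (0.28, adjusted p = 0.0262; 0.19 with the offset, adjusted p = 0.185). GCLC lost its call without 0.20 mM replicate 2 (adjusted p = 0.133), 0.20 mM replicate 3 (0.149) or full-medium replicate 3 (0.240). Besides GLUL and PYCR3, fallen ones included GOT1 and PFAS. Without 0.20 mM replicate 1 the list had 4 risen and 3 fallen members, and without full-medium replicate 3 it had 3 fallen. GLUD1, OAT, GMPS, GOT1 and PFAS were named after their values were seen.

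In the neighbouring polyamine pathway SRM, spermidine synthase, fell from 320, 271 and 243 CPM to 240, 194 and 162 CPM. Every 0.20 mM library was below every control (-0.49 ± 0.07, adjusted p = 1.64e-05; -0.32 with the offset). AZIN1, antizyme inhibitor, which protects ornithine decarboxylase, was at 77.3, 148 and 134 CPM and then 123, 196 and 192 CPM. Its groups overlapped because both replicate 1 libraries were low, but each pair rose (0.52 ± 0.08, adjusted p = 5.57e-05; 0.39 with the offset). ASL, argininosuccinate lyase of arginine synthesis, fell by 0.67 (adjusted p = 9.94e-05; -0.53 with the offset).

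Of 25 amino acid transporters 5 rose and 2 fell, with a median of 0.07. The fallen share is near the 7.15% of all genes that fell, while 7.67% of all genes rose. With the offset 3 rose and 0 fell, with a median of 0.06, where 2.88% of all genes rose and 4.01% fell. SLC7A2, a carrier of arginine and lysine, rose from 89.3, 139 and 164 CPM to 125, 186 and 212 CPM, with overlapping groups (0.42 ± 0.07, adjusted p = 0.000155; 0.25 with the offset). SLC7A11, which imports cystine in exchange for glutamate, passed narrowly (0.31, adjusted p = 0.0445). With the offset its change was 0.05 (adjusted p = 0.829), and the call was lost without any 1 of 5 of the 6 libraries. SLC1A5, a glutamine exchanger that shares 24% of its exonic bases with another gene, was at 498, 436 and 447 CPM and then 456, 462 and 427 CPM (-0.04, adjusted p = 0.775). The list's risen members numbered 2 without 0.20 mM replicate 1 or 3, and 3 without 0.20 mM replicate 2 or full-medium replicate 2 or 3. The fallen members numbered 1 without 0.20 mM replicate 1 or 2 or full-medium replicate 2, and 0 without replicate 3 of either group.

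**Figure D4:**
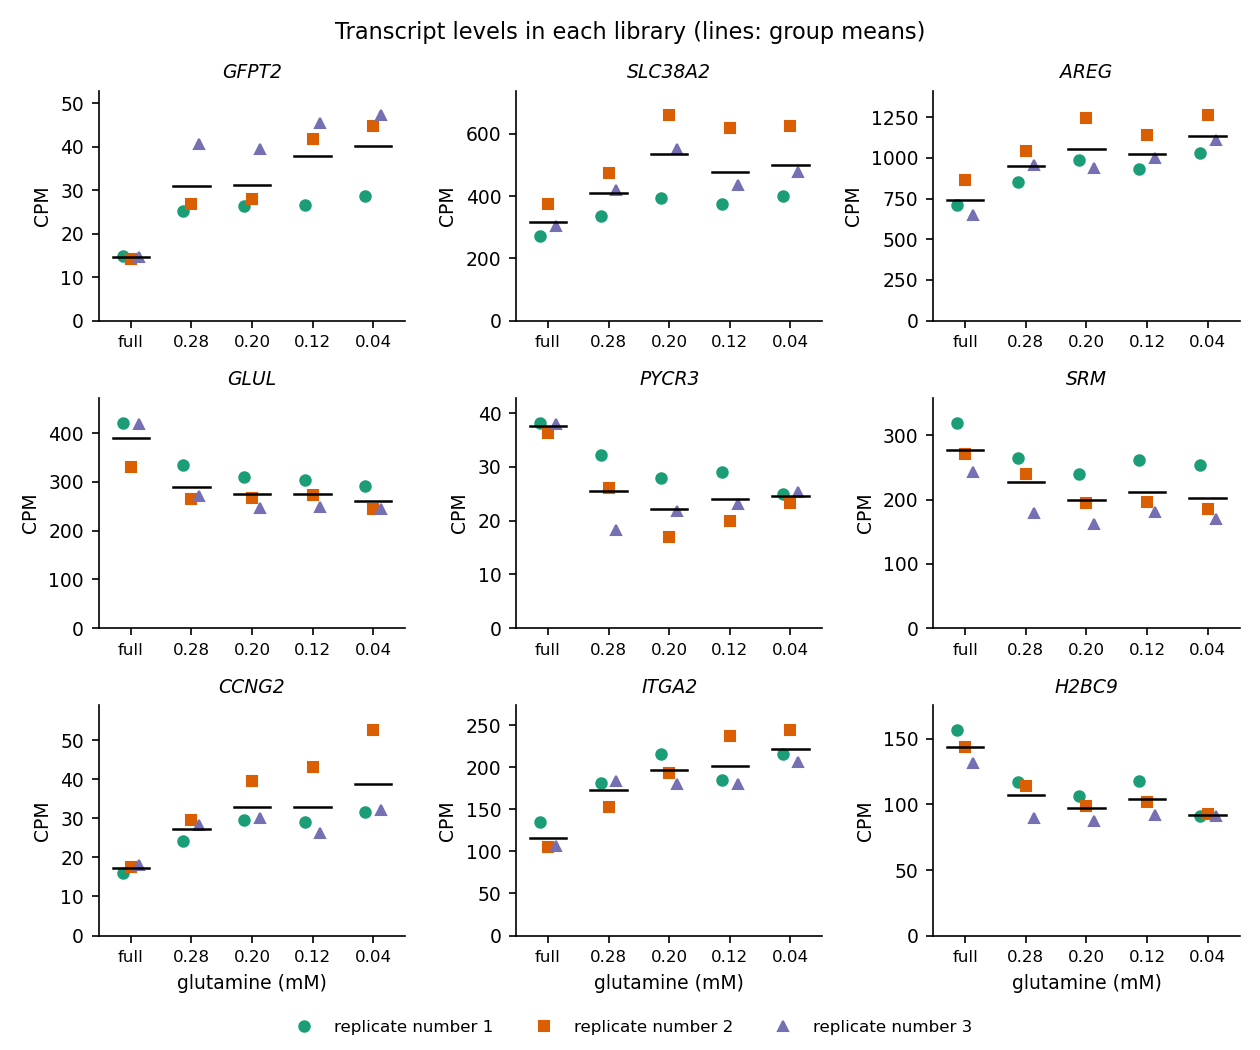
CPM in each of the 15 libraries (y axis, from 0) by glutamine concentration (x axis, mM) for 9 genes, with 1 symbol per replicate number and a line at each group mean. GFPT2, SLC38A2, AREG, CCNG2 and ITGA2 are higher, and GLUL, PYCR3, SRM and H2BC9 lower, in every 0.20 mM library than in every full-medium library.

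Of 42 tested ATF4 and amino acid response genes 3 rose (SLC38A2, SLC7A11 and XPOT, which exports tRNA from the nucleus) and 2 fell (EIF4EBP1, a repressor of cap-dependent translation, and WARS1, a tRNA synthetase), with a median change of 0.02 (-0.03 with spike-in scaling). The risen share is near the 7.67% of all genes that rose. With the offset 6 rose and 0 fell, where 2.88% of all genes rose. WARS1 lost its call when any 1 of 5 of the 6 libraries was left out, with adjusted p from 0.0623 to 0.159. ATF4 itself was at 380, 379 and 391 CPM in full medium and at 360, 454 and 523 CPM at 0.20 mM. Replicate 1 went down and the other 2 up, and the change of 0.19 (adjusted p = 0.115) passed only with the offset (0.31, adjusted p = 0.00813). TRIB3, a pseudokinase induced by ATF4, was at 127, 137 and 177 CPM and then 130, 167 and 217 CPM (0.21, adjusted p = 0.0596; 0.34 with the offset, adjusted p = 0.00331). PHGDH, which starts serine synthesis, had 0.26 (adjusted p = 0.0901; 0.37 with the offset, adjusted p = 0.0141).

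Other genes of this response did not pass either way. PSAT1, a serine synthesis enzyme, had 0.07 (adjusted p = 0.61), and SESN2, a leucine sensor, -0.05 (adjusted p = 0.823). CHAC1, which degrades glutathione, was at 1.29, 0.754 and 0.904 CPM and then 0.262, 0.908 and 4.15 CPM, too few counts for a stable value (0.31 ± 0.58). ASNS, asparagine synthetase, and DDIT3, the stress factor CHOP, were both below 4 CPM in all 6 libraries and share 45% and 40% of their exonic bases with other genes. TXNIP, an inhibitor of glucose uptake that was listed with the transcription factor MondoA and its targets, had 0.21 (adjusted p = 0.0959). It was the exception in that list, where 9 of 10 tested members had negative changes, with a median of -0.07. In that list 0 members rose or fell, and with the offset 0 rose and 1 fell. Leaving out full-medium replicate 1 raised the risen members of the ATF4 list to 9, and the fallen ones to 3. Without 0.20 mM replicate 1, 2 or 3, 2 rose and 1 fell, and without full-medium replicate 2, 3 rose and 1 fell. Without full-medium replicate 3, 2 rose and 3 fell.

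Replication-dependent histone genes and DNA replication genes fell. Of 51 of these histone genes tested, which are transcribed in S phase and whose mRNAs lack a poly(A) tail, 47 fell and 0 rose, with a median change of -0.41 against 0.0033 over all tested genes. With the offset 36 fell, with a median of -0.34. H2BC9, a histone H2B gene, was at 157, 144 and 132 CPM in full medium and at 106, 99.0 and 87.6 CPM at 0.20 mM, without overlap (-0.56 ± 0.07, adjusted p = 7.53e-06; -0.67 with the offset). H2BC7 went from 175, 157 and 142 CPM to 118, 119 and 93.0 CPM (-0.52 ± 0.07, adjusted p = 1.64e-05; -0.59 with the offset). Both have GC contents below the median of all genes, 41.6% and 42.7%, and so fell against the gradient. They are exceptions, as the list as a whole lay on the falling side of both gradients. Its median GC content was 57.2%, against 48.4% for all genes, and its median transcript length 488 bases, against 3219. Histone genes have near-identical copies among which reads may be split, so values of single members are uncertain. Leaving out any 1 of the 6 libraries left 38 to 47 fallen members.

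DNA replication and S phase genes fell as well, 21 of 48 tested with 0 risen, and a median of -0.21 (18 and -0.23 with the offset). In the pairs of replicates 1, 2 and 3 the list's median was -0.04, -0.20 and -0.39. LIG1, the DNA ligase that joins Okazaki fragments, was at 88.8, 82.0 and 82.8 CPM and then 70.0, 58.6 and 53 CPM, with no overlap (-0.49 ± 0.08, adjusted p = 7.31e-05; -0.41 with the offset). RFC2, a clamp loader subunit, had -0.48 (adjusted p = 0.000726; -0.39 with the offset). MCM2, a subunit of the replicative helicase that shares 24% of its exonic bases with another gene, had -0.48 (adjusted p = 0.000726). Without full-medium replicate 3 the fallen members numbered 11. Fewer cells in S phase and less of these RNAs per cell cannot be told apart in bulk RNA.

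Mitosis genes split along the gradient. Of 64 tested, 11 rose and 13 fell, with a median of -0.05. The risen ones had a median GC content of 37.6% and the fallen ones 55.6%, and the highest GC content of a risen member (TTK, 40.8%) was below the lowest of a fallen one (MKI67, 48.3%). With the offset 1 rose and 10 fell. CDC20, an activator of the anaphase-promoting complex, was at 374, 373 and 336 CPM in full medium and at 290, 267 and 182 CPM at 0.20 mM, with no overlap (-0.58 ± 0.09, adjusted p = 4.26e-05; -0.46 with the offset, adjusted p = 0.000732). CENPE, a kinetochore motor, rose by the first fit from 70.5, 125 and 98.7 CPM to 116, 150 and 126 CPM, with overlap (0.44 ± 0.08, adjusted p = 0.00027). With the offset its change was 0.18 (adjusted p = 0.127), and that of the kinesin KIF20B went from 0.41 (adjusted p = 0.000615) to 0.14 (adjusted p = 0.283). Without replicate 1 of either group 4 rose, and the fallen members numbered 8, 5 and 6 without 0.20 mM replicate 1, 0.20 mM replicate 3 and full-medium replicate 3. TTK, a mitotic checkpoint kinase, and MKI67, the Ki-67 proliferation antigen, were named after their values were seen.

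Cell cycle regulators moved less uniformly. Cyclin genes CCNG2 (above) and CCNG1, cyclin G1 (0.52 ± 0.08, adjusted p = 6.52e-05; 0.35 with the offset), rose. CDKN1A, the CDK inhibitor p21, was at 247, 159 and 105 CPM and then 214, 166 and 106 CPM (-0.05, adjusted p = 0.665). MYC was at 752, 623 and 687 CPM and then 669, 613 and 638 CPM (-0.10, adjusted p = 0.352).

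Of 77 tested ribosome biogenesis and RNA polymerase I genes 29 fell and 1 rose, with a median of -0.14, and with the offset 16 fell and 0 rose, with a median of -0.16. NOP56, a core protein of the box C/D particles that modify ribosomal RNA, was at 357, 325 and 267 CPM and then 275, 229 and 202 CPM. The groups overlapped, since 0.20 mM replicate 1 was above full-medium replicate 3, but each pair fell (-0.43 ± 0.07, adjusted p = 8.27e-05; -0.33 with the offset). NAT10, which acetylates ribosomal RNA, went from 205, 193 and 209 CPM to 166, 153 and 155 CPM with no overlap (-0.36 ± 0.06, adjusted p = 0.000193; -0.34 with the offset). TCOF1, a nucleolar factor of ribosomal DNA transcription, had -0.42 (adjusted p = 0.000163; -0.34 with the offset). The fallen members numbered 15, 19 and 17 without 0.20 mM replicates 1, 2 and 3, and 16 without full-medium replicate 3, with 0 or 1 risen.

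Of 24 MYC-linked growth genes 12 fell and 1 rose, with a median of -0.26 (7, 1 and -0.19 with the offset). The fallen members numbered 8 to 14 when 1 library was left out, with 8 without 0.20 mM replicate 1 or full-medium replicate 2, and 0 to 2 rose. Of the ribosomal proteins themselves, 12 of 77 cytosolic and 15 of 75 mitochondrial ones fell, with 1 and 2 risen. Of all genes 7.15% fell, and the medians of these 2 lists were -0.09 and -0.13. With the offset 6 and 5 fell, where 4.01% of all genes did, and the medians were -0.05 and -0.10. RPS26 had the smallest adjusted p of the cytosolic ones (-0.47, adjusted p = 0.00138; -0.45 with the offset). The cytosolic count was 2 without 0.20 mM replicate 1, 6 without 0.20 mM replicate 3, and 7 and 5 without full-medium replicates 1 and 2. The mitochondrial count was 8 without 0.20 mM replicate 1 and 9 without full-medium replicate 2. With 1 library left out, 0 to 3 members of either list rose.

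Of 26 heat shock genes 9 fell and 0 rose, where 7.15% of all genes fell, with a median of -0.12, and with the offset 5 fell. The list's median was 0.0013 in the pair of replicate 1, -0.07 in that of replicate 2 and -0.29 in that of replicate 3. HSPB1, the small heat shock protein HSP27, was at 306, 179 and 226 CPM in full medium and at 192, 141 and 108 CPM at 0.20 mM. The groups overlapped, and each pair fell (-0.70 ± 0.09, adjusted p = 6.29e-06; -0.52 with the offset). BAG3, a co-chaperone, fell by 0.42 (adjusted p = 0.000217; -0.31 with the offset). Of 32 proteasome subunit genes 9 fell, led by PSMD3 (-0.32, adjusted p = 0.00105; -0.20 with the offset, adjusted p = 0.0514), and 4 did with the offset. The heat shock count was 5 without replicate 3 of either group, and without full-medium replicate 3, 4 members rose. The proteasome count was 5 without 0.20 mM replicate 1 or full-medium replicate 2, and 3 without replicate 3 of either group. Without full-medium replicate 2, 1 proteasome gene rose.

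Of 26 ERK feedback and output genes 6 rose and 0 fell, with a median of 0.12 (4, 0 and 0.16 with the offset). The list's median was below 0 in the pair of replicate 1 (-0.06), and 0.29 and 0.22 in those of replicates 2 and 3. AREG, amphiregulin, a ligand of the EGF receptor, was at 714, 868 and 652 CPM in full medium and at 989.8, 1243 and 938 CPM at 0.20 mM. All 3 low-glutamine libraries were above the controls (0.50 ± 0.07, adjusted p = 4.43e-05; 0.48 with the offset). PHLDA1, which is induced by growth factors, went from 136, 115 and 94.8 CPM to 149, 173 and 162 CPM with no overlap (0.48 ± 0.09, adjusted p = 0.000429; 0.37 with the offset). DUSP6, an ERK phosphatase, had 0.46 (adjusted p = 0.000114; 0.40 with the offset) and shares 40% of its exonic bases with another gene.

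Of 33 chemokine, interleukin and NF-kB genes 7 rose and 0 fell, with a median of 0.23 (4, 0 and 0.22 with the offset). The list's median was -0.0068, 0.36 and 0.28 in the pairs of replicates 1, 2 and 3. IL18, interleukin-18, went from 41.0, 46.5 and 55.6 CPM to 50.8, 68.8 and 73.8 CPM, with overlap but a rise in each pair (0.43 ± 0.08, adjusted p = 0.000546; 0.36 with the offset). BIRC2 and BIRC3, inhibitor of apoptosis proteins, had 0.55 and 0.54, and 0.35 and 0.29 with the offset (adjusted p = 0.0182 and 0.0572). Without 0.20 mM replicate 3, 4 members rose.

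Of 20 integrin and laminin genes 5 rose and 0 fell, with a median of 0.15 (3, 0 and 0.14 with the offset). ITGA2, the collagen-binding integrin alpha 2, was at 135, 105 and 107 CPM and then 216, 193 and 180 CPM. Each 0.20 mM library was above each control (0.76 ± 0.09, adjusted p = 6.29e-06; 0.57 with the offset). ITGB8, integrin beta 8, had 0.57 (adjusted p = 0.000114; 0.35 with the offset). The risen members numbered 2 without 0.20 mM replicate 1, 3 without replicate 3 of either group, and 10 without full-medium replicate 1. NT5E, the ecto-nucleotidase CD73, was at 319, 348 and 227 CPM and then 441, 501 and 415 CPM, without overlap (0.61 ± 0.08, adjusted p = 8.2e-06; 0.53 with the offset).

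Of 32 NRF2 targets, the detoxification genes that this redox-sensitive factor induces, 8 rose and 0 fell, with a median of 0.10 (6, 0 and 0.13 with the offset). NQO1, a quinone reductase, went from 322, 409 and 296 CPM to 379, 521 and 406 CPM, higher in each pair with overlapping groups (0.34 ± 0.08, adjusted p = 0.00263; 0.29 with the offset). AKR1C1, an aldo-keto reductase with near-identical relatives, had 0.57 (adjusted p = 0.000449; 0.42 with the offset). NFE2L2, which encodes NRF2 and shares 21% of its exonic bases with another gene, had 0.31 (adjusted p = 0.00212; 0.25 with the offset). The risen members numbered 4 and 5 without 0.20 mM replicates 2 and 3, and 5 without full-medium replicate 3.

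Of 15 tested phosphoinositide 3-kinase genes 8 rose and 1 fell, with a median of 0.23. With the offset 3 rose and 0 fell, with a median of 0.13, while the risen share of all genes went from 7.67% to 2.88%. INPP4B, a phosphoinositide phosphatase, went from 36.6, 39.8 and 42.8 CPM to 52.8, 54.1 and 49.3 CPM, with no overlap (0.40 ± 0.09, adjusted p = 0.00371; 0.16 with the offset, adjusted p = 0.299). Its call was lost without 0.20 mM replicate 1 (0.30, adjusted p = 0.0715). The risen members numbered 3 and 4 without 0.20 mM replicates 1 and 3, and 0 members fell in any fit that left out 0.20 mM replicate 1, 2 or 3 or full-medium replicate 1 or 3. The list's median GC content was 40.3%, against 48.4% for all genes.

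The counts of these groups shared the dependence of all calls on scaling and block. Scaled to the spike-ins, 141 of all 13828 tested genes rose and 280 fell. The fallen ones included 37 of 51 histone, 7 of 48 S phase, 4 of 64 mitosis and 8 of 77 ribosome biogenesis genes. They also included 7 of 24 MYC-linked, 3 of 26 heat shock and 1 of 32 proteasome genes. Of 77 cytosolic and 75 mitochondrial ribosomal proteins 6 and 3 fell. Of 30 enzymes of glutamine and glutamate 2 rose and 3 fell. Of 25 transporters 1 rose and 0 fell, and of 42 genes on the ATF4 list 1 rose and 1 fell. By the same scaling 3 of 26 ERK output, 3 of 33 NF-kB and 2 of 20 integrin and laminin genes rose. So did 2 of 15 phosphoinositide 3-kinase and 1 of 32 NRF2 target genes. Without the replicate block 0 members of these groups passed in either direction.

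**Figure D5:**
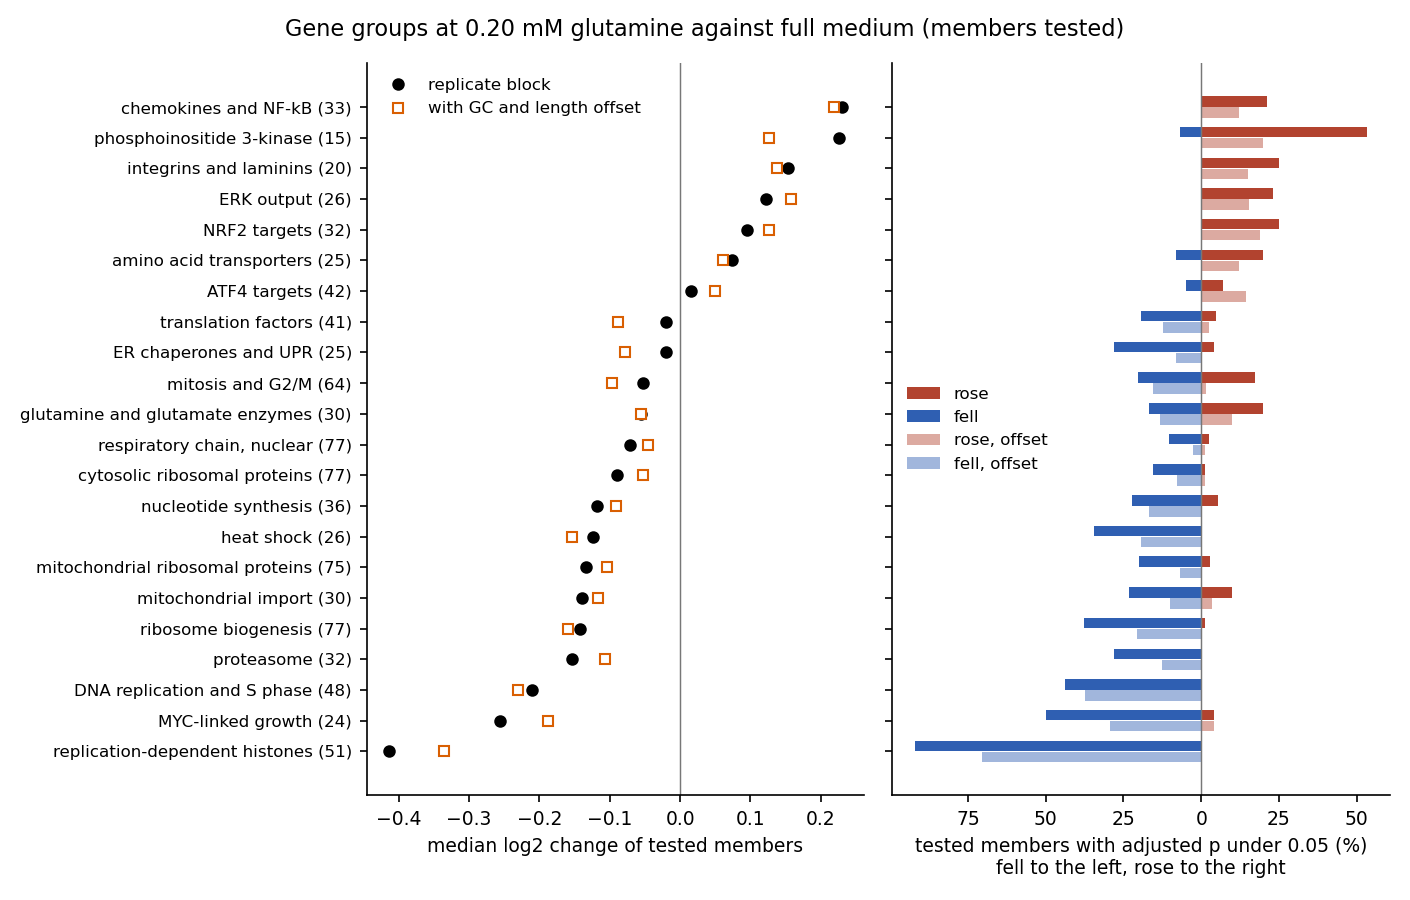
Left, the median log2 change at 0.20 mM against full medium of the tested members of each gene group, without (filled) and with (open) the GC and length offset; right, the percent of members that fell (to the left) or rose (to the right), solid without and pale with the offset. Replication-dependent histones have the lowest median, -0.41 without and -0.34 with the offset.

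Set directly against the neighbouring concentrations, 0.20 mM gave these calls. Against 0.28 mM, 74 genes rose (0.535%) and 23 fell (0.166%), with 1925 at an unadjusted p under 0.05. A fit of these 2 groups alone, in place of all 15 libraries, gave 1431 genes. In the fit of all 15 libraries, the 74 risen genes had a median GC content of 37.7% and the 23 fallen ones 55.2%. With the offset 1 rose and 9 fell, and 0 of the 74 and 8 of the 23 remained. SLC38A2 was at 337, 473 and 421 CPM at 0.28 mM, between full medium and 0.20 mM in each replicate (0.37 ± 0.07 for 0.20 against 0.28 mM, adjusted p = 0.00994). GFPT2 had means of 30.9 CPM at 0.28 mM and 31.3 CPM at 0.20 mM, a change of 0.02 (adjusted p = 0.961). EIF3E, a translation initiation factor subunit, was at 462, 703 and 601 CPM at 0.20 mM and at 341, 512 and 451 CPM at 0.28 mM (0.44, adjusted p = 0.00524).

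Against 0.12 mM, 2 genes differed (0.0145%; 886 at an unadjusted p under 0.05), both lower at 0.20 mM. ENSG00000276700, typed as a ribosomal RNA in GENCODE, a class with near-identical copies, was at 151, 99.0 and 129 CPM at 0.20 mM and at 314, 154 and 189 CPM at 0.12 mM (-0.75, adjusted p = 4.13e-05). ENSG00000289252 was at 3.14, 2.50 and 1.81 CPM and at 9.29, 4.48 and 7.98 CPM (-1.52, adjusted p = 0.00805). Against 0.04 mM, 1 gene differed (0.00723%; 1051 at an unadjusted p under 0.05). It was MT-ND6, a respiratory chain subunit encoded by the mitochondrial genome, at 36.4, 19.3 and 20.7 CPM at 0.20 mM and 77.9, 28.7 and 35.9 CPM at 0.04 mM (-0.86 ± 0.12, adjusted p = 0.00123). These counts moved with the libraries: leaving 1 out of the 6 gave 3 to 25 genes against 0.28 mM, 1 to 26 against 0.12 mM and 0 to 1 against 0.04 mM.

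In the comparisons with full medium, which share their controls, values at the other concentrations stand beside these. GFPT2 means were 14.6 CPM in full medium and 30.9, 31.3, 38.0 and 40.3 CPM at 0.28, 0.20, 0.12 and 0.04 mM. GLUL means were 390 CPM in full medium and 289.7, 275, 275 and 261 CPM in the same order. For ITGA2, which rose at 0.20 mM, the means were 116, 173, 196, 201 and 222 CPM. None of these 3 genes differed between 0.20 mM and any other limited concentration, with adjusted p from 0.38 to 0.991. The intervals are wide: for GFPT2 against 0.04 mM the change was -0.35 ± 0.13 (adjusted p = 0.485).

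Of the markers of other cell types, those of immune and endothelial cells had low sums. The summed level of 13 fibroblast markers was 291 to 354 CPM in full medium and 332 to 385 CPM at 0.20 mM, with 6 tested, LUM and THY1 at 0 reads, and DCN risen by 0.65 (adjusted p = 0.000425). The sum of 12 immune markers was 5.50 to 11.1 CPM and 5.37 to 9.04 CPM, with 2 tested and 7 at 0 reads, PTPRC, CD3D, CD3E, MS4A1, NKG7 and TYROBP among them. The sum of 10 endothelial markers was 3.85 to 6.04 CPM and 7.86 to 10.7 CPM, with CDH5, EMCN and CLDN5 at 0 reads and PECAM1 risen by 0.85 (adjusted p = 0.00586). The part of such cells in the results was not tested.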

How the data were processed

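Total RNA of MCF10A cells was depleted of ribosomal RNA with a KAPA HyperPrep RiboErase kit, per the labels' protocols, and ERCC spike-in RNAs were added. The authors deposited whole-number counts for 62754 Ensembl genes and 92 ERCC spike-ins in each library, and these were used unchanged. The submitters' processing notes name hg38 and GRCh38.p14, while the aligner, counting tool and strandedness of the counts were not given in the sources used here. Each of the 15 count columns matched 1 sample. Depth was 3704170 to 13361406 gene counts per library, and spike-ins took 1.03 to 1.58% of counts. What the biological replicates share or differ in is not stated, so p-values measure the spread between these libraries.

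Genes were kept by filterByExpr of edgeR 4.0.16 (R 4.3.3) with the 5 groups (a count of 10, a total of 15), leaving 13828 genes, and scaled by TMM. One quasi-likelihood fit of all 15 libraries had 1 term per group and the replicate number as a block, and a call is an adjusted p under 0.05. The numbers pair the libraries: with group means removed, same-numbered libraries of the 5 groups correlated at 0.184 to 0.489 (30 pairs, all above 0.1) and others at -0.406 to 0.0549 (60 pairs). Gene GC content and transcript length came from GENCODE 29 for 13534 tested genes, and its gene set may differ from that used for counting. Symbols were found for 40528 genes and RefSeq coordinates (GRCh38.p14) for 39844. The GC and length offset is a spline per library with 4 degrees of freedom in each property. Named genes are the 12 largest rises and falls among called genes averaging 5 CPM or more, with a symbol and 1 direction in all 3 pairs, a panel of glutamine response genes, the 3 members of each of 59 gene lists with the smallest adjusted p, and up to 4 genes each way in each comparison with another limited concentration. Results for a few genes that these rules name are not reported here. Genes sharing 20% or more of their exonic bases with another are marked. Printed promoters are of genes among the 12 with 1 start in RefSeq's table; LINC02454 has none of the motifs and is not printed. The lists, the naming rule and the tests were chosen with earlier results of these data known, so no list is given a test of its own.

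Alternatives were no block, DESeq2 1.42.0, its size factors, ERCC scaling, no filter, a filter of 5 CPM in 3 libraries, the 2 groups alone, GC and length offsets, thinning to 3704170 counts, and leaving out each library, replicate 3 of all groups, or the 2 libraries over 1% mitochondrial rRNA. The code was tested on simulated data. Python 3.11.15 and matplotlib 3.10.9 handled tables and figures.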

Additional observations from a re-analysis of the deposited data

Results flagged for a closer look

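The genes below were picked out because the change between 2 limited concentrations was itself tested and passed. Against 0.28 mM, named genes higher at 0.20 mM included SCOC by 0.71, SLITRK6 by 0.60, PNLIPRP3 by 0.47, COPS2 by 0.46, CALM2 and BIRC3 by 0.45, EIF3E by 0.44, CCNG1 by 0.42, CENPE and DLD by 0.39, SLC38A2 by 0.37, NBN by 0.35, AZIN1 by 0.34, B2M and KIF20B by 0.32 and PLOD2 by 0.28 on the log2 scale. With the GC and length offset, 0 of the 74 genes that rose against 0.28 mM, these included, passed, and the 74 genes had a median GC content of 37.7%.

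Lower at 0.20 mM than at 0.28 mM were ENSG00000289252 (-1.91), ENSG00000269968 (-1.56), VIM-AS1 (-1.50), ALDOA (-0.95), RPL26 (-0.90), ENSG00000276700 (-0.89), MT-ND6 (-0.52), RPS26 (-0.44) and BAG3 (-0.29). With the offset ALDOA (adjusted p = 0.168 by edgeR), MT-ND6 (0.0644) and BAG3 (0.448) did not pass. RPL26 was at 45.2, 35.8 and 38.4 CPM at 0.20 mM, at 85.7, 79.5 and 57.4 CPM at 0.28 mM and at 66.6, 63.4 and 39.7 CPM in full medium. ENSG00000269968, ALDOA and VIM-AS1 share 100%, 53% and 32% of their exonic bases with other genes, and ribosomal protein genes have many near-identical copies.

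ENSG00000276700 (-0.75) and ENSG00000289252 (-1.52) were also lower than at 0.12 mM, and MT-ND6 (-0.86) was lower than at 0.04 mM. ENSG00000276700 was at 388, 181 and 207 CPM in full medium and 331, 185 and 202 CPM at 0.28 mM, against 151, 99.0 and 129 CPM at 0.20 mM and 204, 113 and 97.8 CPM at 0.04 mM, so its level did not follow the order of the concentrations. The cause was not tested.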

How the results depend on the processing

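Of 165 named genes called at 0.20 mM, 164 lost the call without the replicate block, 77 with ERCC scaling, 67 with the GC offset, 64 with the GC and length offset, 52 without replicate 3 of all groups and 28 after thinning. The other settings took 0 to 11, and leaving out 1 library 13 to 41. MGST1 reversed with the GC offset (-0.013, adjusted p = 0.942). The counts of risen genes (main 1061) were 2 with no replicate block, 141 with ERCC scaling, 368 with the GC offset, 398 with the GC and length offset, 618 thinned, 637 without replicate 3 of all groups, and 496 to 909 with 1 library left out. The counts of fallen genes (main 989) were 0, 280, 442 and 555 under the first 4 of these, 341 without replicate 3 of all groups, and 481 to 948 with 1 library left out. DESeq2 with the block shared 1846 of the 2050 calls. Against 0.28 mM (main 97) the counts were 0 with no replicate block, 152 with DESeq2, 22 with ERCC scaling, 180 with no filter, 1431 with the 2 groups alone, 8, 149 and 10 with the GC, length and combined offsets, 43 thinned, 9 without replicate 3, and 3 to 25 with 1 library left out. Against 0.12 mM (main 2) they were 0 with no replicate block, 12 with no filter, 11 with the 2 groups alone, 1 thinned, 1 without replicate 3, 1 without the libraries rich in mitochondrial rRNA, and 1 to 26 with 1 library left out. Against 0.04 mM (main 1) they were 0 with no replicate block, 18 with DESeq2, 36 with no filter, 42 with the 2 groups alone, 0 thinned, and 0 to 1 with 1 library left out. The GC difference was -0.38 to -0.29 and the length difference 0.15 to 0.22 with 1 library left out. The causes of these shifts were not tested.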

Other observations

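Several genes outside the groups described above passed the test at 0.20 mM both without and with the GC and length offset. BMT2, which encodes SAMTOR, a sensor of S-adenosylmethionine upstream of mTORC1, was at 3.97, 6.47 and 5.81 CPM in full medium and at 6.90, 11.9 and 9.69 CPM at 0.20 mM, with no overlap (0.81 ± 0.18, adjusted p = 0.00274 by edgeR; 0.60 with the offset, adjusted p = 0.0393). COL6A3, a collagen VI chain, went from 41.0, 34.6 and 15.5 CPM to 50.7, 61.7 and 41.9 CPM, without overlap (0.75 ± 0.14, adjusted p = 0.000626; 0.77 with the offset). S100A9, a calcium-binding protein of squamous cells and granulocytes, rose by 0.42 (adjusted p = 0.000497; 0.55 with the offset, adjusted p = 7.12e-06). MTRR, which keeps methionine synthase active, fell from 63.2, 79.9 and 78.5 CPM to 54.6, 58.1 and 61.8 CPM, with no overlap (-0.34 ± 0.08, adjusted p = 0.00484; -0.46 with the offset, adjusted p = 0.000262).

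Noncoding classes showed counts in both directions. Of 412 tested lincRNA genes 13 rose and 2 fell, with a median change of 0.06, and of 494 genes typed as antisense 5 rose and 15 fell, with a median of -0.05. Over all tested genes 7.67% rose and 7.15% fell, so both classes were called less often in either direction. Antisense reads cannot be told apart from those of the partner gene unless the counting used strand. Of 11798 protein-coding genes 1026 rose and 952 fell. The counts of these classes are without the offset.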
